A study of Homo sapiens with 4 samples.

Results

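The 10 genes described here belong to the cytosolic heat shock chaperone system, and were followed in OMM2.3, an established uveal melanoma line, under CCCP, DHA or both. They were chosen by name from the 58735 genes of each table, and each had 1 row: the regulator HSF1, the HSP70 genes HSPA1A, HSPA1B and HSPA8, the HSP110 gene HSPH1, the co-chaperone genes DNAJB1 and BAG3, the HSP90 genes HSP90AA1 and HSP90AB1, and the small heat shock protein gene HSPB1. Each of the 4 groups was 1 RNA sequencing library: control, CCCP, DHA, and CCCP + DHA, all in medium with 10% fetal bovine serum. CCCP carries protons across the inner mitochondrial membrane and so collapses its potential. DHA is an abbreviation that the labels leave unexplained. Doses, exposure times and any vehicle are likewise unstated in the labels. OMM2.3 is a single cell line, and the cells were studied without the other cells of a tumour.

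Cytosolic chaperones bind unfolded or partly folded proteins and help them fold, keep them soluble or pass them to degradation. HSF1 is held inactive in unstressed cells and, when unfolded proteins accumulate, forms trimers that bind heat shock elements, inverted repeats of the unit GAA, in the promoters of chaperone genes. Some of these genes are strongly induced in that way, such as HSPA1A, HSPA1B, HSPH1, DNAJB1 and BAG3, while HSPA8 and HSP90AB1 are constitutively abundant in most cells.

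With 1 library per group there was no spread between replicates, and no difference between 2 libraries was tested. Levels are FPKM, fragment counts divided by exon length and a library size. The relative library sizes matched median-of-ratios factors, which set the middle gene's ratio between libraries near 1. They were not the summed reads, from which they differed by -1.39% (CCCP) to 2.78% (control). The all-gene median log2 ratios given below are thus near 0 through this scaling. Fold differences are ratios of FPKM with exact 95% binomial intervals on recovered reads, and these intervals cover counting error only. Log2 ratios are on log2(FPKM + 0.5). All 10 genes were among the 13678 that reached 1 FPKM in some library, and all had a mean of at least 5 FPKM. Treatment and any other difference between the 4 cultures cannot be told apart.

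The promoter sequences are shown for the letters of the heat shock element and for what the chaperone genes share. RefSeq start windows of 300 bases (GRCh38.p14), 250 before to 50 after each start, were at hand for 9 of the 10 genes. The pair of inverted units, GAANNTTC or TTCNNGAA, each of which reads the same on both strands, was in the window of 7 of the 9 genes, against 16.2% of 27305 genes. The run of 3 alternating units, in which 2 such pairs share the middle unit and which was searched on both strands, was in 3 of the 9, against 0.608% of all genes. BAG3 and HSPH1 had neither in these windows. Capitals mark the matches in the sequences that follow.

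The neighbouring genes HSPA1A and HSPA1B are shown over the bases before their first annotated exon because their promoters and transcripts are near copies of each other. The HSPA1A stretch is chr6:31815293-31815463 on the plus strand, 250 to 80 bases before the RefSeq start, and the HSPA1B stretch is chr6:31827488-31827734 on the plus strand, 250 to 4 bases before its start.
HSPA1A: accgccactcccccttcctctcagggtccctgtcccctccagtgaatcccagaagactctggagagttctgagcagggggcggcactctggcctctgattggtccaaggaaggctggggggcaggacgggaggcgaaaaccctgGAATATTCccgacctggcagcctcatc
HSPA1B: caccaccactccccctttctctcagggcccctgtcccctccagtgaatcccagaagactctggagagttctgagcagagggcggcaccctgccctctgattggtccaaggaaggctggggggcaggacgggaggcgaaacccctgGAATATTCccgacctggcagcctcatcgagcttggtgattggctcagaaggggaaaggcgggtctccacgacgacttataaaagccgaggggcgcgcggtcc
Both carried the same 8-base match about 100 bases before the start, at 106 to 99 bases in HSPA1A and 105 to 98 in HSPA1B, and the longest identical stretch in the 250 bases was 49 bases.

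The other matches are shown because they differ in the number of units. The HSP90AB1 stretch (chr6:44247763-44247858, plus strand) and the DNAJB1 stretch (chr19:14518422-14518489, minus strand) each lie before 1 of several RefSeq starts of the gene. Both are outside annotated exons, as is that of HSPB1 (chr7:76302476-76302513, plus strand). Those of HSPA8 (chr11:123062171-123062199 and chr11:123062346-123062374, minus strand) and HSP90AA1 (chr14:102087104-102087133, minus strand) lie within exons that GENCODE 29 gives to the same gene.
HSP90AB1: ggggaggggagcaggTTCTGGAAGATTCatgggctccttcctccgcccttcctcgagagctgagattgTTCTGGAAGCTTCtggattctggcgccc
HSP90AA1: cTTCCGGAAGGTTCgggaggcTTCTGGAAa
HSPA8 near the start: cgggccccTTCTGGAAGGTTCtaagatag
HSPA8 farther from the start: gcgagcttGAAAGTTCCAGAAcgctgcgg
DNAJB1: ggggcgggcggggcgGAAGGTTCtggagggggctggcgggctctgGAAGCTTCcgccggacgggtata
HSPB1: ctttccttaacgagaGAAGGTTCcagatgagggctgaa
HSP90AB1 and HSPA8 had 2 runs of 3 units each, HSP90AA1 had 1 run and a further pair, DNAJB1 had 2 separate pairs, and HSPB1, HSPA1A and HSPA1B had 1 pair each. The longer match was thus in HSPA8 and both HSP90 genes, and the HSPA1 genes held the shorter one. A match is a description of these letters, and binding was not measured here.

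In control cells the 10 genes fell into 2 ranges of level. HSP90AB1 had 530.1 FPKM, HSPA8 307, HSPB1 265 and HSP90AA1 235. DNAJB1 and BAG3 followed with 32.04 and 31.65 FPKM, HSPH1 with 16.1, HSF1 with 12.5, HSPA1A with 11.5 and HSPA1B with 10.98. The ratio of DNAJB1 to BAG3 was 1.01 (0.9504 to 1.08), that of HSF1 to HSPA1A 1.09 (0.983 to 1.202) and that of HSPA1A to HSPA1B 1.05 (0.932 to 1.19). The FPKM of these neighbours in the order thus did not differ beyond counting error. Ratios between genes also depend on the exon lengths used, such as 5307 bases for HSF1 and 2483 for HSPA1A, which the intervals do not cover. The 4 abundant genes held 92.1% of the summed FPKM of the 10 in control and 94.1% with both compounds. The 10 genes together took 0.534% of reads in control, 0.493% after CCCP, 0.578% after DHA and 0.535% after both.

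**Figure D1:**
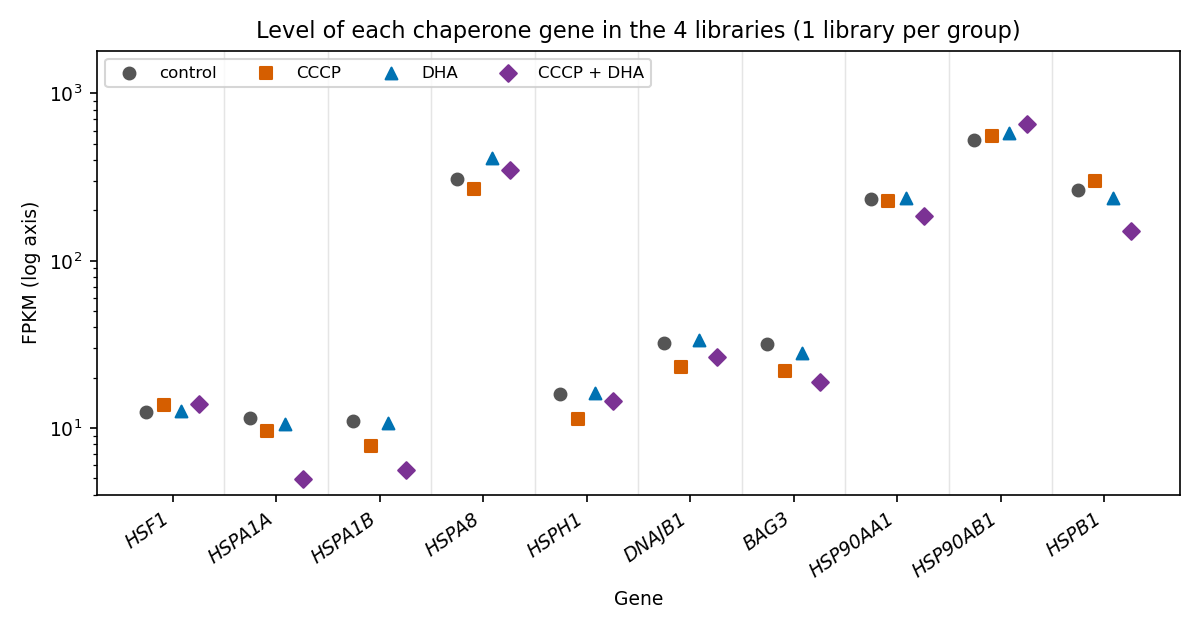
FPKM (log axis) of the 10 chaperone genes in the 4 libraries, 1 point per library. HSP90AB1, HSPA8, HSPB1 and HSP90AA1 lay between 152 and 654 FPKM in the 4 libraries and the other 6 genes between 4.97 and 33.7 FPKM, and HSPA1A and HSPA1B were lowest with CCCP and DHA together.

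No gene of the 10 was at least 2-fold higher in any treated library than in control, and none was at least 1.5-fold higher. Over all genes, 3.21% were at least 2-fold higher after CCCP, 2.0% after DHA and 4.52% after both, and 7.84%, 4.43% and 11.1% were at least 1.5-fold higher. HSPA6, an HSP70 gene that is nearly silent without stress and strongly induced by heat shock, had 12 reads in control, 9 after CCCP, 4 after DHA and 4 after both, of 16900411 to 18937286 reads per library, and did not reach 1 FPKM. At the lower end, 1 of the 10, HSPA1A, was at least 2-fold lower with both compounds, against 5.44% of all genes, and none was with CCCP or DHA alone, against 2.32% and 1.86%. The 3 comparisons with control share the control library, so a control value that was high or low moves all 3.

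HSF1, the regulator of the response, was close to its control level in each treated library. Its level was 12.5 FPKM in control, 13.8 after CCCP, 12.7 after DHA and 14.0 after both. The library with both compounds stood 1.117-fold (1.03 to 1.21) above control, and the interval with DHA included 1. HSF1 is regulated mainly at the protein level, which RNA levels do not show. Genes on the opposite strand, DGAT1 among them, overlap 2.62% of its exon bases, and the kit named in the labels does not mark strand.

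HSPA1A and HSPA1B, the stress-inducible HSP70 genes, were the lowest of the 10 in all 4 libraries. HSPA1A had 11.5 FPKM in control, 9.59 after CCCP, 10.6 after DHA and 4.97 after both, from 558, 398, 454 and 213 reads. HSPA1B had 10.98, 7.86, 10.8 and 5.58 FPKM in the same order, from 539, 331, 468 and 243 reads. Both genes were lowest with both compounds. HSPA1A with CCCP lay nearer to control than to that library, whereas HSPA1B with CCCP lay as far from control as from it, at log2 ratios of -0.46 each. HSPA1A was 2.32-fold (1.98 to 2.73) lower than control with both and HSPA1B 1.97-fold (1.69 to 2.298) lower.

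With CCCP alone HSPA1A was 1.203-fold (1.06 to 1.37) and HSPA1B 1.40-fold (1.22 to 1.61) lower than control. With DHA alone the intervals of both genes included 1. Of the 50-base words of HSPA1A transcripts, 71.3% also occur in HSPA1B transcripts, and how reads that fit both genes were assigned is not given in the sources used here. The split between the 2 genes is therefore uncertain. Their sum does not depend on the split, but it would be too low if reads that fit both genes were left out. Their summed reads were 1097, 729, 922 and 456, which made the pair 2.13-fold (1.91 to 2.38) lower than control with both, 1.29-fold (1.18 to 1.42) lower with CCCP and 1.05-fold (0.964 to 1.15) lower with DHA. The noncoding gene AL671762.1, on the same strand, overlaps 36.5% of the exon bases of HSPA1B. It was listed with 0 reads in all 4 libraries, and how reads in the overlap were counted is not given.

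HSPA8, the constitutive HSP70 gene, was highest with DHA and lowest with CCCP. Its level was 307 FPKM in control, 268 after CCCP, 411 after DHA and 350.5 after both. It was 1.34-fold (1.32 to 1.36) higher with DHA than in control and 1.31-fold (1.29 to 1.33) higher with both than with CCCP alone. CCCP went with a lower level both without DHA, 1.15-fold (1.13 to 1.17), and with it, 1.17-fold (1.16 to 1.19). The log2 ratio of HSPA8 with DHA, 0.42, lay above that of 92.9% of all genes, and it was the highest of the 10. The 17 named HSPA8 pseudogenes took at most 0.0818% as many reads as HSPA8, and small nucleolar RNA genes within HSPA8 overlap 3.61% of its exon bases.

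The constitutive and inducible HSP70 genes lay farther apart with both compounds. HSPA8 stood at 13.6 times (12.8 to 14.5) the sum of HSPA1A and HSPA1B in control, 15.3 times (14.3 to 16.5) after CCCP, 19.2 times (18.01 to 20.6) after DHA and 33.2 times (30.3 to 36.5) after both. A ratio within 1 library does not depend on how libraries are scaled. The size of this ratio does depend on how reads that fit both HSPA1A and HSPA1B were counted, which the intervals do not cover. Other HSP70 and HSP110 genes of a list of 7 were measured for 5. With both compounds 1, HSPA2, was at least 2-fold lower, against 5.44% of all genes, from 285 reads in control and 53 with both. None was 2-fold higher, against 4.52%. HSPA13, whose product is associated with microsomes, had a log2 ratio of 0.63 with both, HSPA4, an HSP110 relative, 0.03, and HSPA14 -0.59.

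HSPH1, DNAJB1 and BAG3 encode partners that drive or load the HSP70 cycle, and all 3 were lower with CCCP. HSPH1 (HSP110, a nucleotide exchange factor and disaggregase partner) had 16.1 FPKM in control, 11.3 after CCCP, 16.2 after DHA and 14.5 after both. DNAJB1 (HSP40, which stimulates the ATPase of HSP70) had 32.04, 23.3, 33.7 and 26.7 FPKM in the same order. BAG3 (an exchange factor that links HSP70 to selective autophagy) had 31.6, 22.0, 27.9 and 18.9 FPKM. For HSPH1 and DNAJB1 the lowest library was CCCP alone, and for BAG3 it was the one with both.

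With CCCP alone HSPH1 was 1.43-fold (1.34 to 1.52), DNAJB1 1.37-fold (1.29 to 1.47) and BAG3 1.44-fold (1.33 to 1.56) lower than control. DHA alone left HSPH1 and DNAJB1 with intervals that included 1, and BAG3 1.13-fold (1.05 to 1.22) lower. Added to CCCP, DHA went with higher HSPH1, 1.28-fold (1.203 to 1.37), and DNAJB1, 1.15-fold (1.07 to 1.23), but with lower BAG3, 1.16-fold (1.06 to 1.27). BAG3 was 1.67-fold (1.54 to 1.82) lower with both than in control, and DNAJB1 1.199-fold (1.13 to 1.28) lower. Exons of DNAJB1 overlap those of other genes, TECR on the opposite strand among them, over 6.21% of their bases, and TECR itself had 1281 reads in control and 656 with both. Its part in the DNAJB1 values was not tested.

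The HSP90 genes went opposite ways with both compounds. HSP90AA1, the stress-inducible isoform, had 235 FPKM in control, 228 after CCCP, 236 after DHA and 184 after both. HSP90AB1, the constitutive isoform, had 530.1, 557, 583 and 654 FPKM in the same order. HSP90AA1 was lowest with both and close to control in the other libraries, whereas HSP90AB1 was highest with both. HSP90AA1 was 1.27-fold (1.25 to 1.30) lower and HSP90AB1 1.23-fold (1.22 to 1.25) higher than control.

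The ratio of HSP90AB1 to HSP90AA1 was 2.26 (2.22 to 2.298) in control, 2.44 (2.40 to 2.48) after CCCP, 2.47 (2.43 to 2.51) after DHA and 3.55 (3.48 to 3.61) after both. With CCCP alone HSP90AB1 was 1.05-fold (1.03 to 1.07) higher than control on the deposited scale, a log2 ratio of 0.07 that turned to -0.04 with the libraries scaled to equal summed FPKM. Named pseudogenes took at most 0.389% as many reads as HSP90AA1 and 0.241% as many as HSP90AB1, and WDR20 on the opposite strand overlaps 3.75% of the exon bases of HSP90AA1.

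**Figure D2:**
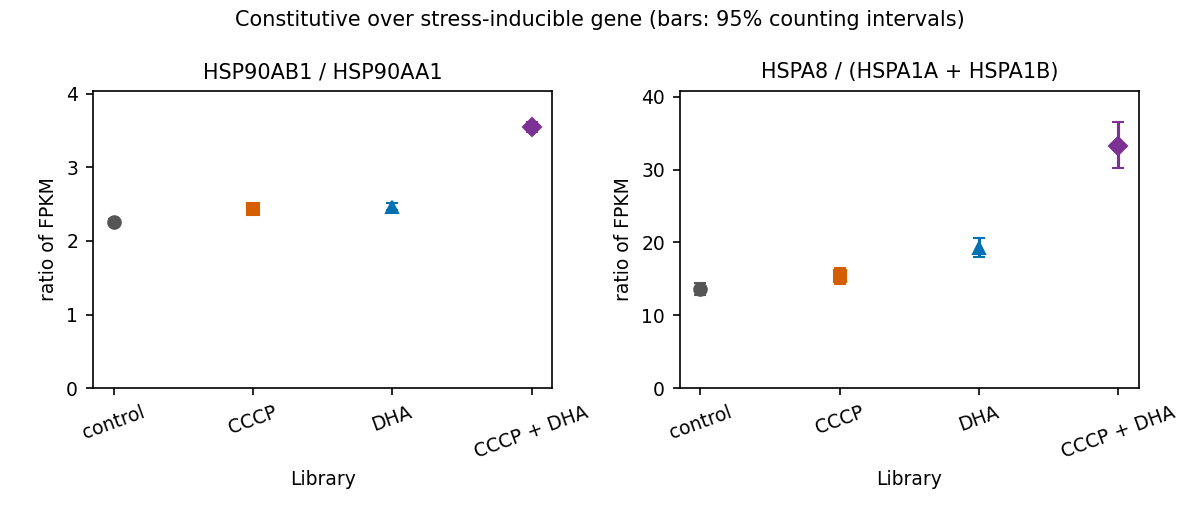
Ratio of FPKM between constitutive and stress-inducible genes in each library, HSP90AB1 to HSP90AA1 (left) and HSPA8 to the sum of HSPA1A and HSPA1B (right), with 95% counting intervals and axes that start at 0. Both ratios were highest with CCCP and DHA together, 3.55 and 33.2, against 2.26 and 13.6 in control.

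HSPB1 (HSP27), a small heat shock protein that holds unfolded proteins without using ATP, was lowest where the compounds were combined. Its level was 265 FPKM in control, 299.98 after CCCP, 239 after DHA and 152 after both. CCCP alone stood 1.13-fold (1.10 to 1.17) above control and DHA alone 1.11-fold (1.08 to 1.15) below it. With both, HSPB1 was 1.75-fold (1.69 to 1.82) lower than control, 1.98-fold (1.91 to 2.05) lower than with CCCP alone and 1.58-fold (1.52 to 1.64) lower than with DHA alone. In the control library HSPB1 exceeded HSP90AA1 by 1.13 times (1.10 to 1.16), and with both compounds it stood at 0.822 times (0.794 to 0.850) its level.

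Of 8 other small heat shock protein genes, 3 were measured and none was 2-fold different from control in any treated library. CRYAB, which encodes alpha-B crystallin, followed the order of HSPB1, with 25.5 FPKM in control, 33.1 after CCCP, 24.9 after DHA and 19.6 after both. HSPB8, which works with BAG3, had 5.51, 8.14, 6.74 and 8.27 FPKM, and HSPB11 9.72, 7.12, 8.54 and 4.80 FPKM. HSPB8 was above control in all 3 treated libraries, where BAG3 was below it.

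**Figure D3:**
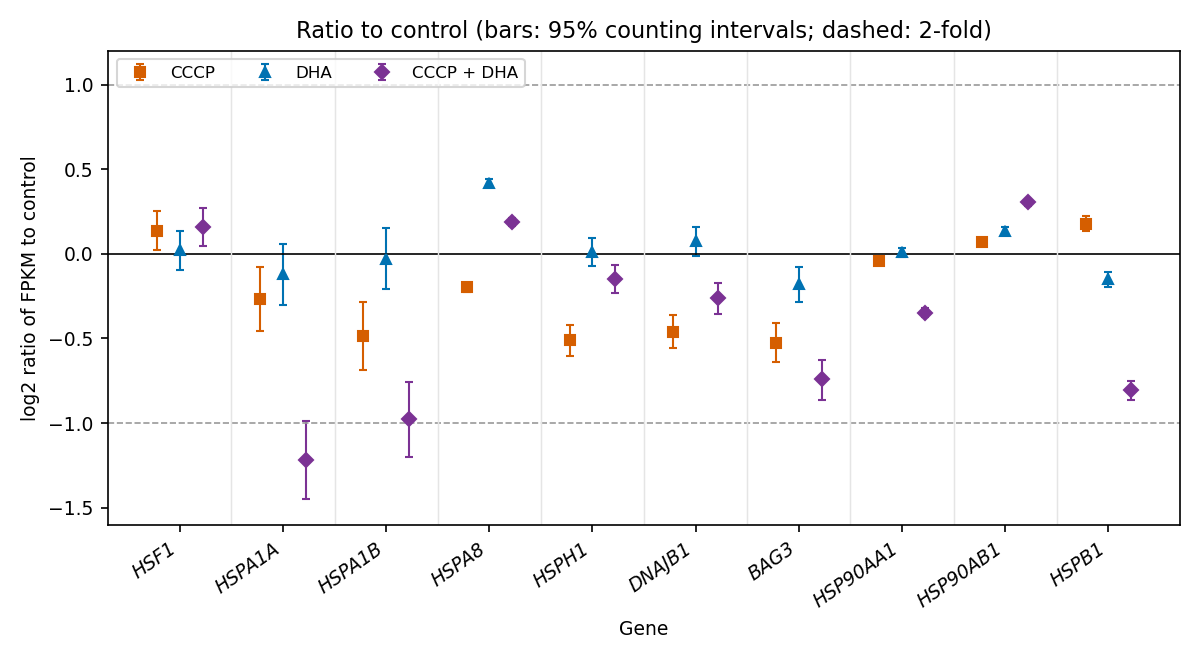
Log2 ratio of FPKM to control, without pseudocount, for each of the 10 genes with CCCP, DHA and both (points) and 95% counting intervals (bars); dashed lines mark 2-fold. With both compounds HSPA1A, HSPA1B, HSPB1 and BAG3 lay lowest, HSP90AB1 lay highest, and no point reached 2-fold above control.

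CCCP alone against control addresses the response to the uncoupler. The median of the 10 genes' log2 ratios was -0.23, beside 0.00 over all 13678 genes. Of the 10, 7 had an interval below 1 and 3 above 1, where 25.8% of all genes had an interval below 1 and 25.8% above. Deeply sequenced genes such as these have narrow intervals, so small ratios pass. None was 1.5-fold lower, against 6.46% of all genes.

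DHA alone against control addresses the other compound. The median log2 ratio was 0.01, beside 0.00 over all genes. The intervals of HSPA8 and HSP90AB1 were above 1 and those of HSPB1 and BAG3 below 1, against 18.1% and 17.2% of all genes, and the other 6 included 1. None was 1.5-fold lower, against 4.15% of all genes. The ratios of HSP90AA1, HSPH1, DNAJB1 and HSF1 were above 0 by at most 0.07 on the log2 scale and were all below 0 with the libraries scaled to equal summed FPKM.

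Both compounds against control address the joint response. The median log2 ratio of the 10 genes was -0.30, beside 0.01 over all genes. An interval below 1 was found for 7 of them and one above 1 for 3 (HSF1, HSPA8 and HSP90AB1), against 29.3% and 30.8% of all genes. At least 1.5-fold lower were 4 of the 10, HSPA1A, HSPA1B, HSPB1 and BAG3, against 12.7% of all genes and 11.3% of the 6760 genes averaging 5 FPKM or more, as all 10 did. HSPA1A and HSPA1B, between which the split of reads is uncertain, make 2 of the 4. Summed as 1 gene they had a log2 ratio of -1.06. None was 1.5-fold higher, against 11.1% of all genes.

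Against CCCP alone, the library with both compounds had a median log2 ratio of -0.10 over the 10 genes. Intervals lay above 1 for 4 and below 1 for 5, where 29.4% and 27.5% of all genes did. HSPB1 and HSPA1A were at least 1.5-fold lower, against 12.4% of all genes and 9.56% of those with the higher mean, and none was 1.5-fold higher, against 8.87%. None was 2-fold lower or higher, against 4.94% and 3.46%. Against DHA alone, the median was -0.34, with intervals above 1 for 2 genes and below 1 for 8, where 26.6% of all genes lay on either side. HSPA1A, HSPA1B and HSPB1 were at least 1.5-fold lower, against 9.38% of all genes and 8.03% of those with the higher mean, and none was 1.5-fold higher, against 7.64%. Summed as 1 gene, HSPA1A and HSPA1B had a log2 ratio of -0.99 against DHA alone. HSPA1A was at least 2-fold lower, against 3.63%, and none was 2-fold higher, against 3.27%. The log2 ratio of HSPA1A against DHA alone, -1.02, was just past the 2-fold rule and fell short of it with a pseudocount of 1 or with libraries scaled to equal summed FPKM.

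How far the library with both compounds lay from the product of the 2 single ratios was taken as a log2 contrast of the 4 libraries, with approximate 95% counting intervals. HSPB1 lay -0.83 (-0.90 to -0.76) from the product, HSPA1A -0.83 (-1.13 to -0.53), HSPA1B -0.46 (-0.76 to -0.17) and HSP90AA1 -0.32 (-0.36 to -0.28). HSPH1 lay 0.35 (0.23 to 0.47) above it and HSP90AB1 0.10 (0.06 to 0.13). The intervals of HSF1, HSPA8, DNAJB1 and BAG3 included 0 on the deposited scale. Scaling the libraries to equal summed FPKM adds 0.18 to every gene's contrast. HSF1 then lay at 0.18 (0.02 to 0.34), HSPA8 at 0.15 (0.11 to 0.18) and DNAJB1 at 0.30 (0.17 to 0.44), and HSPA8 and BAG3 turned from below 0 to above it. The interval of HSPA1B then included 0, at -0.28 (-0.58 to 0.01), as did that of BAG3, at 0.14 (-0.02 to 0.31). HSP90AA1 lay at -0.13 (-0.17 to -0.09) and HSP90AB1 at 0.28 (0.24 to 0.31), while HSPB1 and HSPA1A remained well below 0 at -0.65 each. Of all 13678 genes, 6.46% had a lower contrast than HSPB1 and 7.37% a lower one than HSPA1A on log2(FPKM + 0.5).

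**Figure D4:**
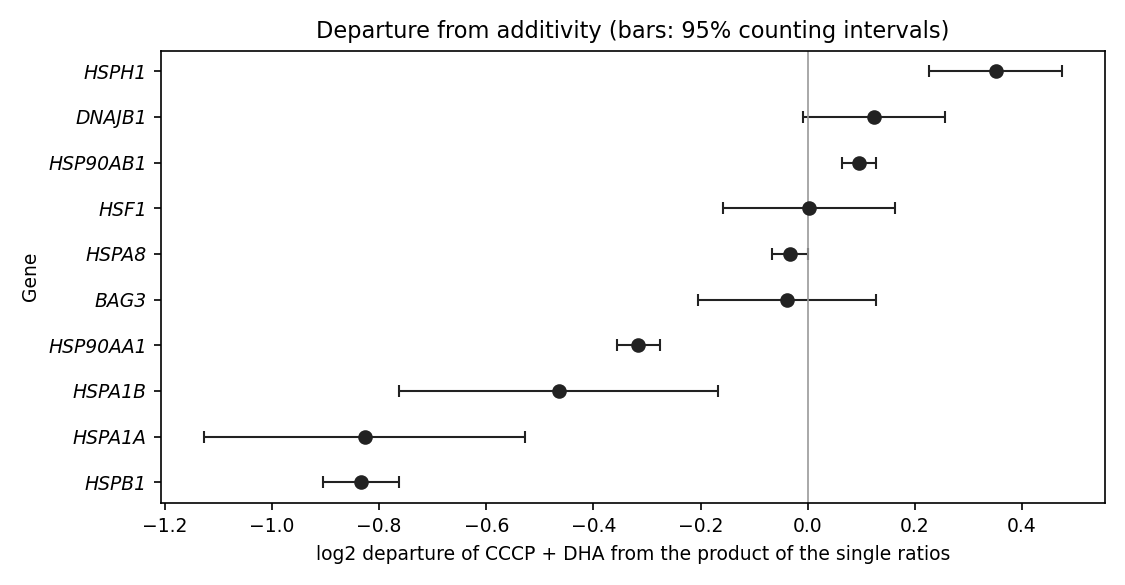
Log2 departure of the library with both compounds from the product of the single ratios (x axis) for each of the 10 genes (y axis), without pseudocount and on the deposited scale; bars are approximate 95% counting intervals. HSPB1 and HSPA1A lie lowest at -0.83 and HSPH1 highest at 0.35.

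The additive limma-trend fit takes that departure as its measure of spread, with 1 residual degree of freedom, and tests each compound over both pairs of libraries. No gene of the 10 passed a Benjamini-Hochberg adjusted p of 0.05, where 0.0950% of all genes passed for CCCP and 0.102% for DHA. At an unadjusted p under 0.05 there were 4 of the 10 for CCCP, against 14.5% of all genes, and 1 for DHA, against 12.1%, which is near the share over all genes. The 4 for CCCP included both HSPA1A and HSPA1B, between which the split of reads is uncertain. The smallest adjusted p for CCCP was that of HSPA1B (log2 -0.67, SE 0.16, adjusted p 0.163), which was lower in both pairs, and BAG3 was next (log2 -0.53, SE 0.14, adjusted p 0.195). The smallest for DHA was that of HSPA1A (log2 -0.50, SE 0.20, adjusted p 0.408). On recovered reads limma-voom called HSPA1B and BAG3 as lower with CCCP (adjusted p 0.0307 and 0.0331), against 5.01% of all genes, and none of the 10 for DHA, against 3.9%.

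Of 12 further DNAJ genes, 11 were measured, with median log2 ratios of -0.07 after CCCP, 0.05 after DHA and -0.19 after both. None was 2-fold different with both compounds, where 5.44% of all genes were 2-fold lower and 4.52% higher. A count of 0 in lists this short, here and below, is not far from that share. DNAJB4 and DNAJB2 had -0.63 and -0.55 with both, and DNAJA2 0.39. Of 16 HSP90 co-chaperone genes, 15 were measured and none was 2-fold different with both, with medians of -0.18, 0.04 and -0.01. PTGES3 (p23) and STIP1 (HOP, which bridges HSP70 and HSP90) had -0.50 and -0.35 with both, and the immunophilin gene FKBP4 had 0.44. The 7 BAG and exchange factor genes had medians of -0.09, 0.11 and 0.11, and none was 2-fold different with both, BAG6 standing at 0.28.

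The chaperonin TRiC, which folds actin and tubulin, and prefoldin, which delivers them to it, were measured for all 14 genes of the list. Their medians were -0.12 after CCCP, 0.10 after DHA and 0.11 after both, and 1 gene was at least 2-fold higher with both, against 4.52% of all genes. This was the prefoldin gene PFDN2, with 57.8 FPKM in control, 76.2 after CCCP, 86.2 after DHA and 145 after both. PFDN4 and PFDN5 had log2 ratios of 0.63 and 0.42 with both.

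Heat shock factors and their regulators, 11 genes, had a median of 0.00 with both. None was 2-fold different, where 5.44% of all genes were 2-fold lower and 4.52% higher, not far from 0 in so short a list. VCP stood at -0.68, IER5L, a relative of the HSF1 regulator IER5, at -0.73 and the deacetylase gene SIRT1 at 0.51. The 12 other genes listed as heat shock factor targets had medians of -0.09 after CCCP, 0.08 after DHA and 0.12 after both. With both, 4 were at least 1.5-fold higher, against 11.1% of all genes, and 1 was 1.5-fold lower, against 12.7%. At least 2-fold higher was 1, against 4.52%, and none was 2-fold lower, against 5.44%. The gene 2-fold higher was SQSTM1, the autophagy receptor p62, with 40.7 FPKM in control, 55.6 after CCCP, 55.2 after DHA and 129 after both. HSPE1, the partner of the mitochondrial chaperonin, had 23.1, 15.8, 18.7 and 11.8 FPKM in the same order. SQSTM1 is also a target of other stress regulators.

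Chaperones of the other compartments are given beside the cytosolic ones. The 15 endoplasmic reticulum chaperone genes had median log2 ratios of -0.45 after CCCP, -0.34 after DHA and -0.89 after both. With both, 7 were at least 2-fold lower, against 5.44% of all genes. CALR stood at -1.88, PDIA4 at -1.89 and HSP90B1, the HSP90 of that compartment, at -1.30. The list had 2 genes above control with both, DNAJB9 at 0.59 among them. The 11 mitochondrial chaperone and protease genes had medians of -0.06, 0.17 and 0.22. With both, 1 was at least 2-fold higher, against 4.52% of all genes, and none was 2-fold lower, against 5.44%. This list had 2 genes below control with both, HSPE1 at -0.93 among them. HSPA9, the mitochondrial HSP70, had 33.9 FPKM in control, 32.4 after CCCP, 45.2 after DHA and 82.9 after both, and the protease gene LONP1 26.1, 26.7, 34.8 and 46.8 FPKM. With both compounds, then, the HSP70 gene of the mitochondria had a log2 ratio of 1.28, HSPA8 of the cytosol 0.19 and HSPA1A -1.14. HSPA5, the HSP70 gene of the endoplasmic reticulum, had -0.49. Differences between the lists were not tested.

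**Figure D5:**
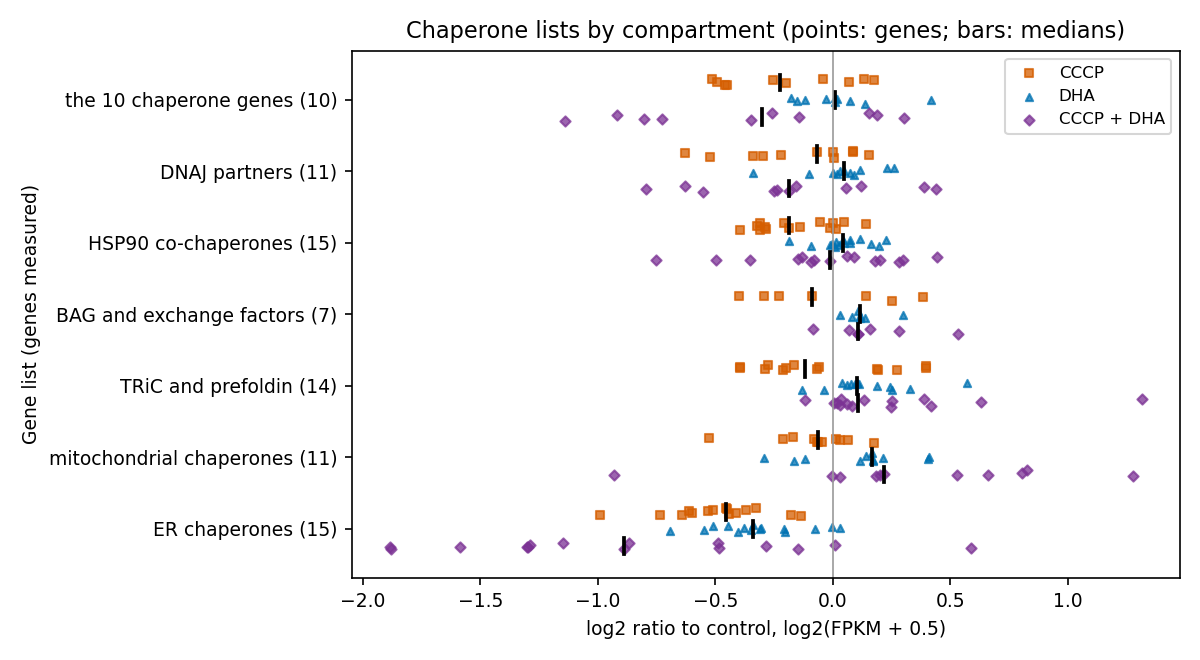
Log2 ratios to control on log2(FPKM + 0.5) (x axis) of the measured genes (points) of each chaperone list (y axis, number of genes in brackets) with CCCP, DHA and both, with medians as bars. With both compounds the medians were -0.30 for the 10 cytosolic genes, 0.22 for mitochondrial chaperones and -0.89 for endoplasmic reticulum (ER) chaperones.

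HSPA1A had the widest range of the 10 over the 4 libraries, 1.14 on the log2 scale, and the 5 of 6759 other genes (mean of 5 FPKM or more) whose centred log2 levels lay closest to it were TPX2, NCAPG, LRRC45, TAGLN2 and STMN1. Their Euclidean distances over the 4 libraries were 0.05 to 0.08. TPX2, a spindle assembly factor, had 65.5 FPKM in control, 52.3 after CCCP, 57.8 after DHA and 28.4 after both. HSPA1B was at a distance of 0.31 and ranked 180th of the 6759, HSPB1 ranked 347th and BAG3 558th. With 4 libraries, likeness of this kind rests on few points.

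Of 16 melanocyte lineage markers 5 reached 1 FPKM (MITF, PMEL, GPR143, RAB27A and RAB38), 6 had 0 reads (TYR, PAX3, SLC45A2, OCA2, KIT and EDNRB), and SOX10 had 1 to 8 reads. The labelled cell type is thus met by part of its marker list. No leukocyte marker of 6 or endothelial marker of 4 reached 1 FPKM in any library. Of 6 fibroblast markers 2 did, COL1A1 and PDGFRB, and LUM had 0 reads, with a summed level of 17.0 FPKM in control, 12.4 after CCCP, 7.86 after DHA and 4.43 after both. Short-lived transcripts, which can reflect how RNA was handled as well as signalling, had 11 of 13 genes measured, with a summed level of 309 FPKM in control, 370 after CCCP, 367 after DHA and 528 after both and DUSP1 at 222 FPKM with both. Mitochondrial genes took 4.80% of reads in control and 3.85% with both. These 3 measures were at their highest or lowest in the library in which HSPA1A, HSPA1B and HSPB1 were lowest, and their part in those results was not tested.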

How the data were processed

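RNA from 4 OMM2.3 libraries, 1 per group, was sequenced after TruSeq RNA library preparation from 1 ug of total RNA, per the labels' protocols. The authors deposited FPKM for 58735 genes, per the file headers; no source used here names an aligner, counter or build. All identifiers matched GENCODE 29 (GRCh38). Dividing FPKM times exon length by 1 value per library gave whole reads for 100% of genes above 0 (tolerance 0.01 reads), 16900411 to 18937286 per library. Where a symbol had several rows, the identifier paired in RefSeq was used. The deposited scaling was kept, a pseudocount of 0.5 was added for log2 ratios, and the 13678 genes that reached 1 FPKM somewhere were compared. The additive fit used limma 3.58.1 in R 4.3.3 and was tested on simulated data; voom on recovered reads, other pseudocounts, filters and scalings were alternatives. A count model on recovered reads is not reported, because the deposited unit is FPKM. Other values came from Python 3.11.15. The 10 genes and the lists were chosen with earlier results of these data known. Named list genes were up to 3 per list with the largest ratio with both compounds and a mean of at least 5 FPKM, except 1 that is not reported here; the 5 genes nearest to the member of widest range were named too. HSPA6, HSPA2, HSPA5, DNAJB9, the lineage and fibroblast markers, DUSP1 and genes overlapping a member were named after their values were seen. Intervals cover counting error only.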

Additional observations from a re-analysis of the deposited data

Results flagged for a closer look

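On the deposited scale, HSPB1 was the gene of the 10 whose ratio went opposite ways for 1 compound depending on the other, with counting intervals that excluded 1 each time. Its log2 ratio for CCCP was 0.18 without DHA and -0.65 with DHA. With libraries scaled to equal summed FPKM these were 0.07 and -0.59, and other genes also went opposite ways. HSP90AB1 for CCCP then had -0.04 without DHA and 0.24 with it. HSPH1 for DHA had -0.09 without CCCP and 0.43 with it, and DNAJB1 and HSF1 for DHA also changed sign. With 1 library per group, these differences were not tested.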

How the results depend on the processing

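Of 245 log2 ratios of the 10 genes under other pseudocounts, scalings or a summed HSPA1 pair, 240 kept their direction. Most of them could not have turned, so that count does not measure robustness. A pseudocount cannot turn a ratio, and median-of-ratios scaling was already that of the deposited values. Summing the HSPA1 pair left the other genes as they were. Equal summed FPKM, which can turn a ratio, turned 5 of 50. The 5 that turned did so with libraries scaled to equal summed FPKM, which moves the median of all genes by up to 0.09: HSP90AB1 with CCCP (-0.041), and HSP90AA1, HSPH1, DNAJB1 and HSF1 with DHA. That scaling gave medians of -0.34 with CCCP and -0.089 with DHA, and a median departure from additivity of 0.15 against -0.03. The single gene 2-fold lower with both than with DHA, HSPA1A, became 0 with a pseudocount of 1, with equal summed FPKM and with the HSPA1 pair summed, which also turned the median against CCCP to 0.022. A 1.5-fold rule gave 4, 2 and 3 genes for both compounds against control, CCCP and DHA, with HSPA1A and HSPA1B counted apart.

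The additive fit depended most on the settings. Genes past the threshold for CCCP numbered 13, but 21 and 24 with pseudocounts of 0.1 and 1, 89 with a mean of at least 5 FPKM, 0 without filter (limma; 2211 at an unadjusted p under 0.05), 0 without trend (1496), 519 with equal summed FPKM and 685 by voom. For DHA they numbered 14, then 34 with a mean of at least 5 FPKM, 0 without filter (1568), 0 without trend (1126), 409 with equal summed FPKM and 533 by voom; the cause was not tested. Among the 10 genes, calls appeared for HSPA1B with CCCP (adjusted p 0.0411 with equal summed FPKM and 0.0307 by voom), BAG3 with CCCP by voom (0.0331) and HSPB1 with DHA at equal summed FPKM (0.0472). Genes at least 2-fold different with both compounds numbered 1362, and 494 with a mean of at least 5 FPKM. TMM scaling and a count test on recovered reads had been planned, were run and are not reported as results, because a count model is kept to files deposited as counts. That test called HSPA1B as lower with CCCP but not BAG3, which fell just short, so the call of BAG3 rests on voom alone. Voom models log values and was kept, with the library sizes that the deposited FPKM imply. Leaving out a library would leave no residual degree of freedom. No paired analysis was possible because each group has 1 library.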
